A study of Arabidopsis thaliana with 72 samples.

Results

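Gene expression in sid2-2 seedlings that had received no NHP (N-hydroxy-pipecolic acid) was compared with that in Col-0 wild type, using the 24 mock libraries of these genotypes out of 72 in the series. The libraries were chosen by their labels alone: 12 of sid2-2 and 12 of Col-0, with 3 at each of 4 time points. All were made from whole seedlings in liquid medium at 10 days after germination, to which plain medium was added in place of NHP for 15 or 30 min or for 3 or 6 h. The 12 mock libraries of fmo1-1, a mutant of the NHP-forming gene FMO1 in the same ecotype and grown and sampled alike, served as a second control. The sid2-2 mutant is in the Col-0 ecotype and carries a loss-of-function allele of ICS1, and no other mutation is named for it. Each library held the pooled seedlings of 1 well, and a plate held 1 genotype, so that plate and genotype cannot be told apart. The question was how the transcriptome of an SA-deficient mutant differs from wild type before any NHP is given, and which differences are present at every time point.

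Salicylic acid (SA) is the defence hormone that plants make after attack by many biotrophic pathogens. In Arabidopsis most of it is made from chorismate in the plastid, where ICS1 forms isochorismate. EDS5 exports isochorismate, PBS3 joins it to glutamate, and the product breaks down to SA, a step that EPS1 speeds up. SA is then perceived by NPR1 and its relatives NPR3 and NPR4, which act with TGA transcription factors on promoters that hold the bases TGACG. NHP is a mobile signal of systemic acquired resistance, made by FMO1, that acts together with SA.

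The 12 Col-0 libraries held 20506759 to 25147145 reads assigned to genes (median 23932061.5) and those of sid2-2 20426502 to 26930192 (median 24178691). Values are given as CPM, counts scaled to library size with TMM factors (edgeR's cpm), and differences as log2 of sid2-2 minus Col-0 with their standard error, from a fit with time point as a term. The test was the quasi-likelihood F test of edgeR, and genes with a Benjamini-Hochberg adjusted p under 0.05 are referred to as called. Library batch, as listed in the study's sample setup without saying what kind of batch, was shared by all 6 libraries at 15 min, and at 6 h by 1 Col-0 library and the 3 of sid2-2. At 30 min and 3 h batch and genotype cannot be told apart. A fit with batch as a term, which therefore compares the genotypes in those 10 libraries only, is given beside the results it changes most. Replicates 2 and 3 of sid2-2 at 15 min stood apart: the SD of their log2 deviations from the group mean was 0.166 and 0.172, against 0.098 to 0.125 in the other 22 libraries.

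ICS1 transcripts were lower in sid2-2 at every time point. ICS1 (AT1G74710) stood at 7.22 to 11.9 CPM (median 9.32) in Col-0 and at 0.425 to 1.49 CPM (median 0.845) in sid2-2, and the genotypes did not overlap. The log2 difference was -3.33 ± 0.115 (SE), with an adjusted p of 8.17e-19 by edgeR. It was -3.41, -4.11, -3.22 and -2.83 in the order of time, and these differed among the time points (adjusted p = 0.0163, edgeR's test of genotype by time). The low counts of ICS1 went with the label in all 12 sid2-2 libraries.

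The gene next to ICS1 was lower as well. TRZ1 (AT1G74700), which encodes a tRNase Z that trims the 3' ends of tRNA precursors, lies upstream of ICS1 on the same strand in TAIR10.1, with 2871 bases between the annotated genes. TRZ1 stood at 3.93 to 6.46 CPM (median 5.18) in Col-0 and at 0.425 to 1.2 CPM (median 0.862) in sid2-2. The libraries did not overlap, and the log2 difference was -2.51 ± 0.113 (adjusted p = 1.33e-16, edgeR). No other gene tested among the 10 annotated on each side was called past a log2 difference of 1 or -1. The gene on the far side of ICS1, QKY, a membrane protein of organ shape, had a difference of 0.25 ± 0.0313 (adjusted p = 8.55e-08). IQD31, which precedes TRZ1, had one of 0.01 ± 0.0262 (adjusted p = 0.832). The largest of the others were BOR5, a boron transporter homologue, at -0.69 ± 0.169 and GASA6 at -0.55 ± 0.102. Neither was called with library batch as a term (adjusted p = 0.053 for BOR5 and 0.15 for GASA6).

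**Figure D1:**
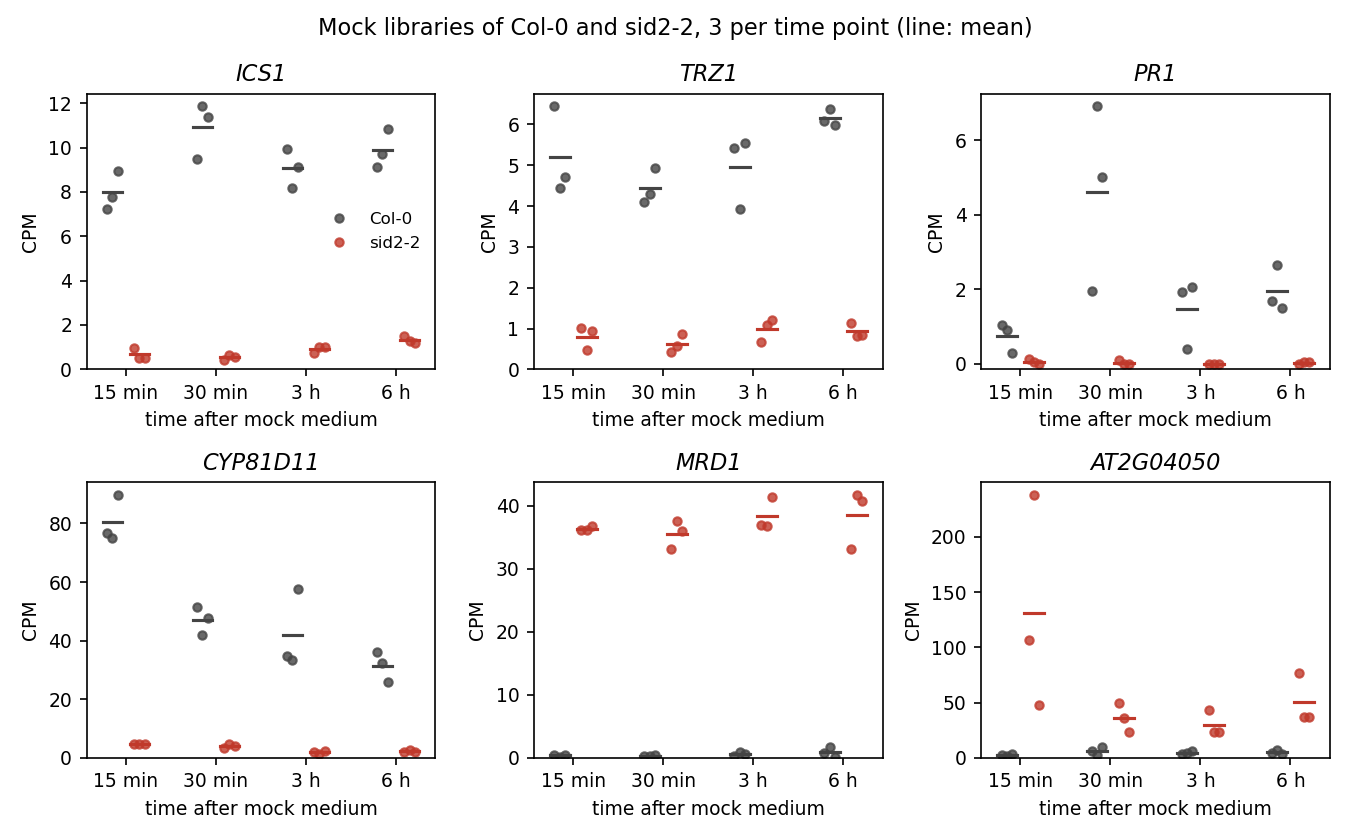
CPM of 6 genes in each mock library of Col-0 and sid2-2, by time point, with 3 libraries per group (points) and their mean (line), on linear axes. ICS1, its neighbour TRZ1, PR1 and CYP81D11 were lower in every sid2-2 library than in every Col-0 library, MRD1 and AT2G04050 were higher, and AT2G04050 was highest in sid2-2 at 15 min. No overlap of libraries was part of the rule by which CYP81D11, MRD1 and AT2G04050 were chosen.

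Across the genome many genes differed, most of them by little. Of 20725 genes tested, 11353 (54.8%) were called over the 4 time points, 5767 (27.8%) higher and 5586 (27%) lower in sid2-2. The median size of the log2 difference of called genes was 0.246, and only 152 (0.733%) were higher past 1 and 155 (0.748%) lower past -1. With library batch as a term 7766 genes were called, and the 15 min libraries alone gave 4875. That smaller fit filtered its genes anew. List counts from it stand beside the 2617 higher and 2258 lower of all genes. Shares are not given, so whether they differ from the background cannot be told. The median over all genes was -0.00584.

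The 15 min libraries gave 6340 called genes (30.6%), those at 30 min 5110 (24.7%), those at 3 h 7339 (35.4%) and the 6 h libraries 6249 (30.2%). Genes higher by more than 1 on the log2 scale were 307 (1.48%) at 15 min, 106 (0.511%) at 30 min and 175 (0.844%) at both 3 h and 6 h. Genes lower by more than 1 were 199 (0.96%), 214 (1.03%), 252 (1.22%) and 232 (1.12%) in the order of time. A call at 1 time point only was made for 1079 genes (5.21%), 767 (3.7%), 1330 (6.42%) and 1089 (5.25%) in the same order. Called at all 4 with the same sign were 2341 genes (11.3%): 1474 higher (7.11%) and 867 lower (4.18%), with a median size of 0.393 on the log2 scale. Of these, 53 (0.256%) were higher past 1 over the 4 time points and 81 (0.391%) lower past -1. A further 28 genes (0.135%) were called at all 4 but not in the same direction, 8914 (43%) were called at 1 to 3, with 1999 (9.65%) at exactly 3, and 9442 (45.6%) were called at none. In 747 genes (3.6%) the 12 libraries of one genotype did not overlap the 12 of the other, with sid2-2 above Col-0 in 438 (2.11%). Genes called at all 4 made up between 10.9% and 12.5% of those tested on each of the 5 nuclear chromosomes. Among the 68 plastid genes tested 16 (23.5%) were called at all 4, all of them higher, and none of the 35 mitochondrial genes was. The libraries were made from poly(A)-selected RNA, and the part of that selection in the organelle counts was not tested. Without sid2-2 15 min replicate 2 the count at all 4 was 2379, and without replicate 3 it was 2088.

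**Figure D2:**
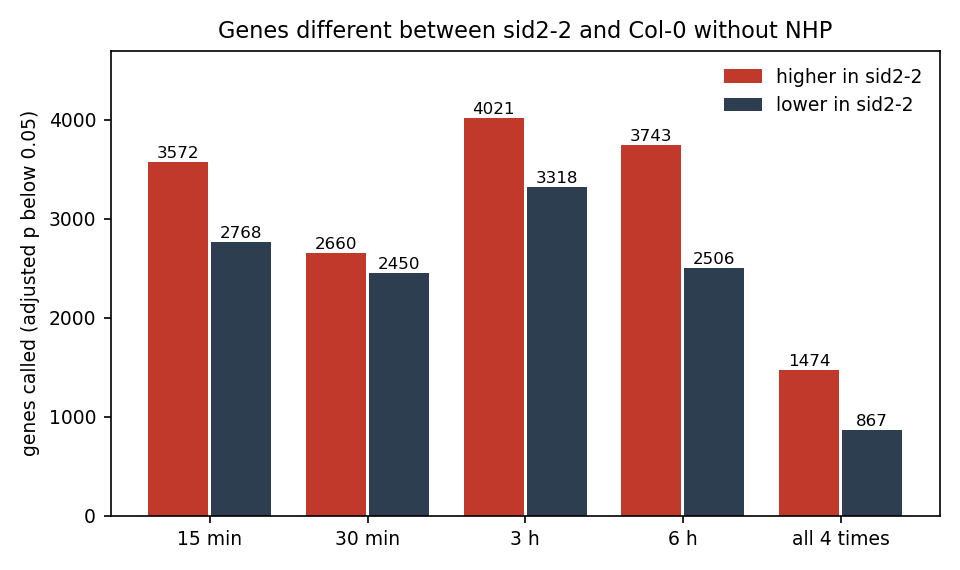
Number of genes called at an adjusted p below 0.05 at each time point and at all 4 with the same sign, higher (red) and lower (dark) in sid2-2 than in Col-0. Higher genes outnumbered lower ones at each time point, with 3572 against 2768 at 15 min and 1474 against 867 at all 4.

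The genes that SA is known to switch on were lower in sid2-2 as a group. Of 13 SA responsive genes tested in a list of 14, 10 were called lower and 1 higher, and the median log2 difference was -1.01. Over all genes tested 27% were called lower and 27.8% higher, and the median was -0.00584. PR1 (AT2G14610), the usual marker of SA signalling, stood at 0.277 to 6.91 CPM (median 1.80) in Col-0. In sid2-2 PR1 had 0 counts in 7 libraries and at most 3 in the others, 8 in all against 620 in Col-0. This is a ratio of 79.4 per read sequenced, with an exact 95% interval from 40 to 185 that covers counting error only. LURP1 (AT2G14560), a gene of basal defence against downy mildew, was lower in the same way, with 8 counts in sid2-2 against 808 in Col-0, a ratio of 103 (exact 95% interval 52.3 to 240). Both were called at all 4 time points, with log2 differences of -4.22 ± 0.364 for PR1 and -4.56 ± 0.320 for LURP1 that depend on the prior count. The fit with library batch as a term gave -3.12 and -3.31, both still called.

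Other outputs of SA differed less. ACD6, an ankyrin membrane protein that raises SA signalling, stood at 4.31 to 24.1 CPM in Col-0 and 2.22 to 7.82 CPM in sid2-2, a log2 difference of -1.39 ± 0.138 (adjusted p = 2.1e-08). BDA1, another ankyrin protein of defence, differed by -1.56 ± 0.236, AED1, an apoplastic aspartyl protease, by -1.33 ± 0.216, and WAK1, a wall-associated kinase, by -1.01 ± 0.108. GRXS13, a glutaredoxin, differed by -0.60 ± 0.0528 and DOX1, an oxylipin-forming dioxygenase, by -0.57 ± 0.0669. PR1, LURP1, ACD6, BDA1, GRXS13 and DOX1 were the 6 genes of the list called lower at all 4 time points. PR2, a glucanase, had a difference of -1.14 ± 0.246 (adjusted p = 0.000412), but -0.63 with library batch as a term (adjusted p = 0.23) and -0.01 at 15 min. The thaumatin-like PR5 had a difference of 0.00 ± 0.0747 (adjusted p = 0.993). The 1 gene called higher was NUDT6, a Nudix hydrolase, at 0.46 ± 0.119, which with library batch as a term had 0.12 (adjusted p = 0.63). With that term 8 genes of the list were called lower (61.5%, against 16.6% of all genes) and 0 higher (20.9% of all genes). In the 15 min libraries alone 5 were lower, against 2258 of all genes. PR1, LURP1 and GRX480, all called lower over the 4 time points, were not tested in those libraries alone. GRX480 differed by -0.87, and by -0.75 with library batch as a term, where it was not called (adjusted p = 0.12).

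Genes that make, modify and perceive SA were lower by smaller amounts. Of 10 synthesis and export genes 6 were called lower and 1 higher, with a median of -0.295. These were 60% and 10% of the list, against 27% and 27.8% of all genes tested. The 6 include ICS1, the mutated gene itself, whose call says nothing about the other members. In the fit with library batch as a term 5 were lower (50%, against 16.6% of all genes) and 1 higher (10%, against 20.9%). Besides ICS1, the genes called lower over the 4 time points included PAL1, a phenylalanine ammonia-lyase of the second route to SA. PAL1 stood at 244 to 313 CPM in Col-0 and 179 to 212 CPM in sid2-2. The libraries did not overlap, and the log2 difference of PAL1 was -0.51 ± 0.0301 (adjusted p = 3e-14), while that of PAL2 was -0.01 ± 0.0264 (adjusted p = 0.815). PAL4 differed by -0.54 ± 0.0656, PAL3 by -0.27 ± 0.0545 and EPS1 by -0.32 ± 0.0846. ICS2, the minor isochorismate synthase, was at 0.378 to 0.763 CPM in Col-0 and 0.0957 to 0.943 CPM in sid2-2. Its difference of -0.66 ± 0.216 (adjusted p = 0.0113) was not called with library batch as a term (adjusted p = 0.18). AIM1, of beta-oxidation, was called higher at 0.07 ± 0.025, and not with library batch as a term (adjusted p = 0.26). EDS5 had a difference of -0.12 ± 0.051 (adjusted p = 0.0516). PBS3 had one of 0.69 ± 0.373 (adjusted p = 0.124), 1.69 with library batch as a term (adjusted p = 0.018), and 0.27 over the 4 time points without sid2-2 15 min replicate 2 (adjusted p = 0.182), the library in which it reached 11.4 CPM.

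Of 10 SA turnover genes tested in a list of 11, 8 were called lower (80%, against 27% of all genes tested) and none higher, with a median of -0.404. With library batch in the model 6 were lower (60%, against 16.6% of all genes). In the 15 min libraries alone, where DLO1 was not tested, 5 were lower, against 2258 of all genes. UGT74F2, which makes the glucose ester of SA, stood at 95.5 to 148 CPM (median 124) in Col-0 and at 64.0 to 89.1 CPM (median 72.3) in sid2-2. The genotypes did not overlap, with a log2 difference of -0.73 ± 0.0498 (adjusted p = 1.2e-11). Its close relative UGT74F1 had a difference of 0.07 ± 0.0602 (adjusted p = 0.35). UGT75B1, another glucosyltransferase, differed by -1.44 ± 0.128. DMR6, an SA hydroxylase, differed by -0.74 ± 0.0663 and its relative DLO1 by -0.99 ± 0.175. UGT76B1, which adds glucose to SA and NHP, differed by -0.34 ± 0.0531.

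Of 13 receptors, interactors and TGA factors tested in a list of 14, 7 were called lower (53.8%, against 27% of all genes tested) and none higher, with a median of -0.153. With library batch in the model 5 were lower (38.5%, against 16.6% of all genes). In the 15 min libraries alone 3 were lower, against 2258 of all genes. NPR4 was at 10.2 to 13.6 CPM in Col-0 and 7.16 to 9.82 CPM in sid2-2, without overlap, a difference of -0.50 ± 0.0482 (adjusted p = 6.35e-10). NPR1 differed by -0.22 ± 0.0382 (adjusted p = 1.44e-05), and by -0.11 with library batch as a term (adjusted p = 0.11). NPR3 had a difference of -0.10 ± 0.05 (adjusted p = 0.078), and NIMIN-3, which binds NPR1, one of -0.38 ± 0.0546. TGA1 differed by -0.22 ± 0.0313 and TGA7 by -0.31 ± 0.0488.

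The WRKY factors of defence were divided. Of 11 tested in a list of 13, 5 were called lower, 1 higher and 5 not, which is 45.5% lower and 9.09% higher against 27% and 27.8% of all genes tested. WRKY54 was at 0.718 to 1.11 CPM in Col-0 and 0.305 to 0.703 CPM in sid2-2, and differed by -0.86 ± 0.125 (adjusted p = 1.19e-06) at all 4 time points. WRKY70 had a difference of -0.72 ± 0.169 (adjusted p = 0.00102), but -0.33 with library batch as a term (adjusted p = 0.28). WRKY53 had differences of 0.05, -0.05, -0.87 and -1.12 in the order of time, and the time points differed (adjusted p = 1.13e-05, edgeR's test of genotype by time). Over the 4 time points its difference was -0.50 (adjusted p = 0.00198). With library batch as a term it was -0.36 and not called (adjusted p = 0.076). WRKY18 was called higher at 0.18 ± 0.0437. With library batch as a term 3 of the list were higher (27.3%, against 20.9% of all genes). In that fit 2 were lower, a share near the 16.6% of all genes. In the 15 min libraries alone 1 was higher and 0 lower, against 2617 and 2258 of all genes.

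Among 17 genes of NHP synthesis and the EDS1 module tested in a list of 18, 3 were called higher, 5 lower and 9 not, with a median of -0.102. The share called lower, 29.4%, lay near the 27% of all genes tested, and the share called higher lay under their 27.8%. EDS1 and PAD4, the lipase-like partners that relay immune receptor signals, had differences of -0.03 ± 0.0544 (adjusted p = 0.68) and -0.04 ± 0.0419 (adjusted p = 0.423). SARD4, which reduces the precursor of pipecolic acid, differed by -0.41 ± 0.0814. FMO1 had a difference of -0.34 ± 0.121 (adjusted p = 0.018), and of -0.01 with library batch as a term (adjusted p = 0.97). DIR1, a lipid-transfer protein of systemic resistance that overlaps another gene on the opposite strand, was at 8.18 to 37.5 CPM in Col-0 and 20.6 to 64.9 CPM in sid2-2, a difference of 1.08 ± 0.104 (adjusted p = 2.91e-08). Without sid2-2 15 min replicate 2, 9 of the 17 genes were lower and 2 higher. Over all genes 5594 were called lower in that fit, against 5586 with the library kept. The nearness of the list to all genes in its share called lower therefore did not hold without that library.

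Genes of jasmonate, the hormone that often opposes SA, did not move one way. Of 30 tested, 6 were called higher (20%) and 8 lower (26.7%), with a median of 0.0154, against 27.8% and 27% of all genes tested. In this fit the list did not stand out from the background. With library batch as a term 9 were higher (30%, against 20.9% of all genes) and 4 lower (13.3%, against 16.6%). LOX2, a plastid lipoxygenase at the start of jasmonate synthesis, was at 458 to 816 CPM in Col-0 and 215 to 452 CPM in sid2-2, without overlap, a difference of -0.93 ± 0.113. TAT3, a jasmonate-induced aminotransferase, differed by -1.95 ± 0.281 and ST2A, which sulfates hydroxyjasmonate, by -0.58 ± 0.0875. LOX4 differed by 0.92 ± 0.197 and the repressor JAZ9 by 0.47 ± 0.0756. The storage protein VSP2 had a difference of -0.67 ± 0.185, not called with library batch as a term (adjusted p = 0.17). Of 10 camalexin and indole glucosinolate genes, 3 were lower (30%, against 27% of all genes tested) and 0 higher. With library batch as a term 1 was higher and 1 lower (10% each, against 20.9% and 16.6% of all genes). In the 15 min libraries alone 3 were higher and 1 lower, against 2617 and 2258 of all genes. The median of the list was 0.43, 0.261, -0.245 and -0.577 in the order of time. Among them MYB34, a regulator of indole glucosinolates, differed by -0.27 ± 0.0468, and CYP71A13 by -1.43 ± 0.394, which with library batch as a term was -0.42 (adjusted p = 0.55).

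Some genes of chorismate, the substrate of ICS1, and of the other pathways that start from it were higher by small amounts. The list held chorismate synthase, chorismate mutases, and genes of tryptophan and phylloquinone synthesis, the latter by way of isochorismate. Of 13 tested, 7 were called higher (53.8%, against 27.8% of all genes tested), none lower and 6 not, with a median of 0.151. With library batch in the model 5 were higher (38.5%, against 20.9%). MENB, of phylloquinone synthesis, differed by 0.42 ± 0.0439, ASA2, an anthranilate synthase, by 0.25 ± 0.032, CM1, a chorismate mutase, by 0.22 ± 0.0348, and PHYLLO by 0.21 ± 0.0438. MENB and ASA2 were called at all 4 time points.

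**Figure D3:**
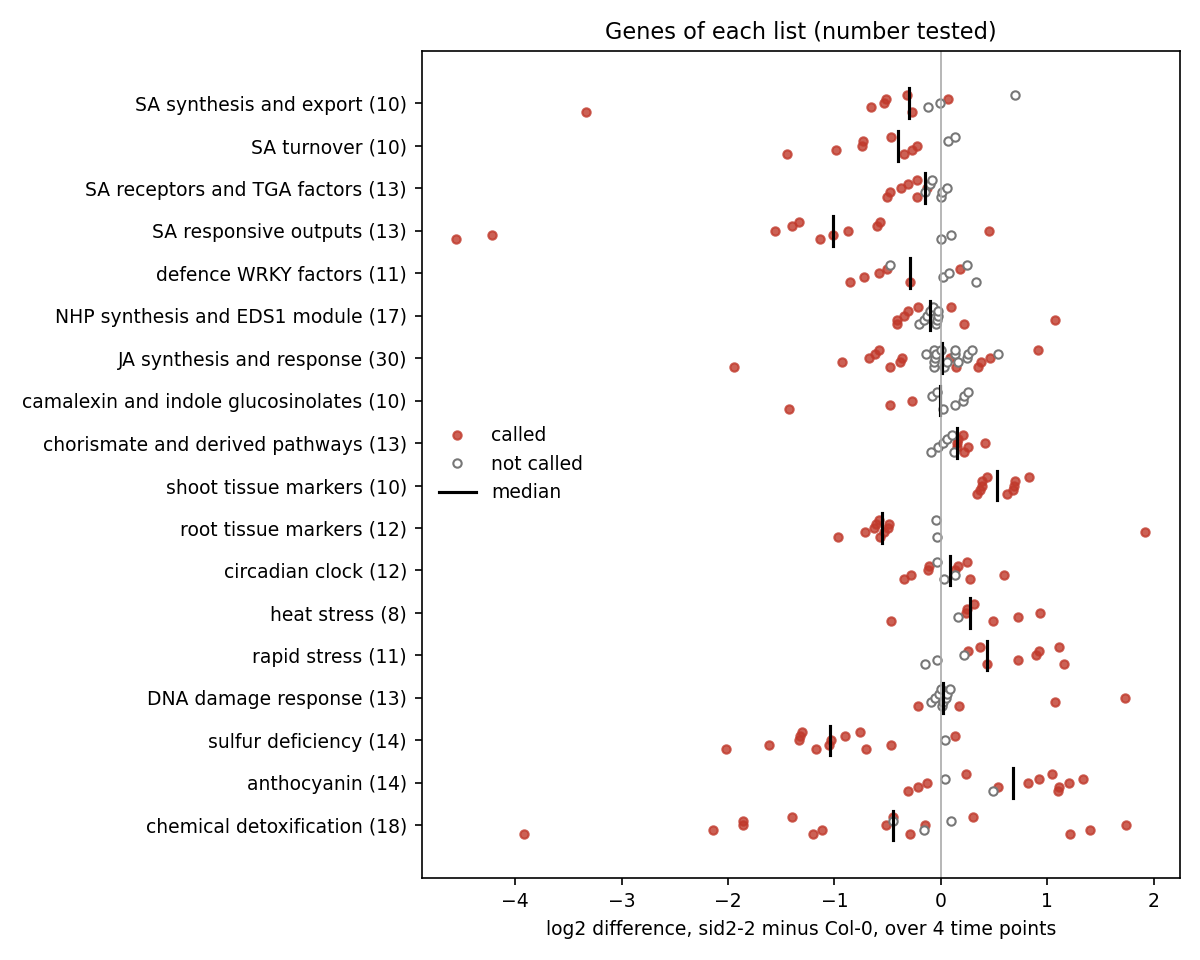
Log2 difference of sid2-2 minus Col-0 over the 4 time points for each tested gene of 18 lists, called (filled) or not (open), with the median of each list (line) and the number tested in brackets. SA responsive outputs and sulfur deficiency genes had the lowest medians, -1.01 and -1.04, and anthocyanin genes the highest, 0.677, and the last 4 lists were drawn up after values had been seen.

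The largest differences that held at all 4 time points without overlap of libraries (276 genes lower, 1.33%, and 404 higher, 1.95%) lay partly outside the SA lists. The 12 lowest were LURP1, PR1, CYP81D11, ICS1, TPX2, AT5G03350, AT1G73120, AT4G01870, CYP89A6, TRZ1, AT3G22235 and AT4G11910. The sequences upstream of 4 of them are shown because they hold TGACG, the bases that TGA factors bind. They are the 250 bases before the annotated gene start in the RefSeq annotation of TAIR10.1, read 5' to 3' on the strand of the gene, with TGACG or its complement CGTCA in capitals:

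CYP81D11, chr3:10790554-10790803, minus strand: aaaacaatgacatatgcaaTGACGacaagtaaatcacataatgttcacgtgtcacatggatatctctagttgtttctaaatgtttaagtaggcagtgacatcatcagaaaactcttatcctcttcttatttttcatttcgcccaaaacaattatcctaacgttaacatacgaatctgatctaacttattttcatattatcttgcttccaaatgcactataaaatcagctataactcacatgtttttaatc

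AT5G03350, chr5:816671-816920, minus strand: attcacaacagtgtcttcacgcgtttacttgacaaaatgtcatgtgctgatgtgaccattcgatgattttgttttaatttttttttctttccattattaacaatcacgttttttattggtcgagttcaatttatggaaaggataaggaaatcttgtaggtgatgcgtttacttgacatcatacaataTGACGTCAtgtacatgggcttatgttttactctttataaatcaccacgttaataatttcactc

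AT1G73120, chr1:27498063-27498312, minus strand: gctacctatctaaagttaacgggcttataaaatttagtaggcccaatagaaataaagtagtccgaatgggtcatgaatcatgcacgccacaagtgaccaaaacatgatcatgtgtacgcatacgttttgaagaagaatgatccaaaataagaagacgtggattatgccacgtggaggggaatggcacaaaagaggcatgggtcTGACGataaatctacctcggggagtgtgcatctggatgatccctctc

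AT3G22235, chr3:7855815-7856064, minus strand: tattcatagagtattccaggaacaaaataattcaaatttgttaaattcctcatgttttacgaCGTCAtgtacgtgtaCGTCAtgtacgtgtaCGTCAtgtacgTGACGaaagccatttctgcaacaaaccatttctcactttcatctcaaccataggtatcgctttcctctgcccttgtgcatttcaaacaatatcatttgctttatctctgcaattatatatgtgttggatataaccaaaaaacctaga

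TGACG was found on either strand in 5 of the 12 windows, these 4 and that of TPX2. Of the windows of all 20621 genes tested on the nuclear chromosomes 19.2% held it, and of the 81 genes lower past -1 at all 4 time points 28 (34.6%) did. Among all 867 genes lower at all 4 the share was 21.2%, and among the 1458 windows of genes higher at all 4 it was 21.1%. Of the 53 genes higher past 1 at all 4, 12 (22.6%) held it. So did 3 of the windows of the 12 highest genes, given below, with 4 matches in AT2G18193, 3 in MOT1 and 1 in AT2G04050. In AT3G22235, which shares its product name with the SA marker PCC1 but is another gene (PCC1 is AT3G22231), TGACG or CGTCA occurred 4 times, and in AT5G03350 the 2 matches overlapped. A match describes these letters only, and binding was not measured.

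CYP81D11 (AT3G28740), a cytochrome P450 of chemical stress responses, was at 25.8 to 89.7 CPM (median 44.7) in Col-0 and at 1.31 to 4.87 CPM (median 2.96) in sid2-2. The difference was -3.91 ± 0.127 (adjusted p = 2.28e-15, edgeR), with values from -4.40 at 3 h to -3.49 at 30 min. AT5G03350, a legume lectin family protein, was at 3.09 to 23.7 CPM (median 7.35) in Col-0 and 0.386 to 1.80 CPM (median 0.878) in sid2-2, a difference of -3.21 ± 0.208. AT1G73120, annotated as an F-box/RNI superfamily protein, was at 7.77 to 16.9 CPM in Col-0 and 1.03 to 2.23 CPM in sid2-2, a difference of -2.74 ± 0.0921. AT3G22235 was at 0.555 to 6.72 CPM in Col-0 and at most 0.404 CPM in sid2-2, a difference of -2.47 ± 0.314, or -1.47 with library batch as a term. That each sid2-2 library was below each Col-0 library in these genes follows from the rule by which they were chosen.

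TPX2 (AT1G65970), a peroxiredoxin, was at 26.1 to 85.3 CPM (median 49.9) in Col-0 and 2.18 to 12.9 CPM (median 5.19) in sid2-2, a difference of -3.30 ± 0.151. Its near-identical neighbour TPX1 had a difference of -0.02 (adjusted p = 0.64), and reads shared between them make the value of TPX2 uncertain. AT4G01870, a tolB-like protein, was at 169 to 424 CPM (median 283) in Col-0 and 33.2 to 89.8 CPM (median 41.8) in sid2-2, and differed by -2.62 ± 0.138. CYP89A6, another cytochrome P450, differed by -2.60 ± 0.175 and AT4G11910, a STAY-GREEN-like protein, by -2.30 ± 0.113. Of the 24 genes named here by size, CYP81D11, TPX2, AT5G03350, MRD1 and AT1G30170 overlap a gene annotated on the other strand. Of the 126 genes followed singly through the other fits, most of them named here, 32 do so. Among them are UGT74F1, UGT74F2, UGT75B1, BDA1, NPR1, EDS5, WRKY53, GSTU7, SDI2, SULTR4;2, APR1 and APR3. Whether counting used strand is not given, and the values of all of them are uncertain to that extent.

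Other genes of chemical detoxification, in a list drawn up after CYP81D11 and its like had been seen, were mostly lower. Of 18 tested in a list of 19, 11 were called lower (61.1%, against 27% of all genes tested) and 4 higher (22.2%, under the 27.8% of all genes), with a median of -0.448. With library batch in the model 7 were lower (38.9%, against 16.6%) and 4 higher (22.2%, against 20.9%). OPR1, a reductase of oxophytodienoate and other electrophiles, was at 95.3 to 219 CPM (median 141) in Col-0 and 26.4 to 59.3 CPM (median 32.7) in sid2-2, without overlap, a difference of -2.14 ± 0.129. OPR2 differed by -1.20 ± 0.0616, the glutathione transferases GSTU1 and GSTU7 by -1.39 ± 0.108 and -1.11 ± 0.0726, and the aldo-keto reductase ChlAKR by -1.86 ± 0.196. Members of the same families were higher: CYP81D8 by 1.74 ± 0.396, GSTU25 by 1.21 ± 0.258 and GSTU19 by 0.31 ± 0.0619. CYP81D8 ranged from 4.19 to 112 CPM in sid2-2, and its difference was 1.47 without sid2-2 15 min replicate 2, 1.82 without replicate 3 and 2.87 with library batch as a term. GSTU25 had 1.97 with that term. None of the list was called higher at all 4 time points, and 7 were called lower.

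Genes that rise when sulfur is short were lower in sid2-2, in a list also drawn up after values had been seen. Of 14 tested in a list of 15, 12 were called lower (85.7%, against 27% of all genes tested), 1 higher and 1 not, with a median of -1.04, and 12 were lower with library batch as a term (16.6% of all genes). APR3, an enzyme that reduces activated sulfate, was at 110.2 to 216 CPM (median 178) in Col-0 and 45.0 to 77.7 CPM (median 56.0) in sid2-2, a difference of -1.62 ± 0.0583 (adjusted p = 1.22e-15). APR1 differed by -0.90 ± 0.0604. SULTR4;2, which releases sulfate from the vacuole, was at 7.14 to 11.1 CPM in Col-0 and 2.98 to 4.21 CPM in sid2-2, a difference of -1.31 ± 0.0637. LSU2 differed by -1.03 ± 0.0982, SDI2, a repressor of glucosinolate synthesis, by -1.17 ± 0.0626, SHM7 by -1.05 ± 0.0423 and GGCT2;1, which breaks down glutathione, by -1.34 ± 0.1. APR3, APR1, SULTR4;2, LSU2, SDI2 and SHM7 did not overlap between genotypes, as was so for 3.6% of all genes. SULTR1;2, the main root uptake carrier, had a difference of 0.04 ± 0.0924 (adjusted p = 0.71). SULTR2;1 was called higher at 0.14 ± 0.0551, and not with library batch as a term (adjusted p = 0.18), and it had -0.02 in the 15 min libraries alone.

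The 12 highest genes were led by MRD1 (AT1G53480), named for its lower level in a methionine over-accumulating mutant. MRD1 was at 0.0782 to 1.69 CPM (median 0.483) in Col-0 and at 33.1 to 41.7 CPM (median 36.8) in sid2-2, a difference of 5.88 ± 0.163 (adjusted p = 1.49e-16), or 6.64 with library batch as a term. In Col-0 it was near 0 in every library, and in sid2-2 it was steady. HEI10 (AT1G53490), a meiotic crossover gene that overlaps MRD1 over 1446 bases on the opposite strand, was at 2.23 to 3.76 CPM in Col-0 and 5.85 to 9.24 CPM in sid2-2, a difference of 1.37 ± 0.0858, and reads of the pair may have been divided either way.

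Of the other high genes, the 6 that follow had their highest sid2-2 library at 15 min, in replicate 2, 1 of the 2 libraries that stood apart. AT2G04050, a MATE efflux protein, was at 1.75 to 9.77 CPM (median 3.90) in Col-0 and 23.0 to 238 CPM in sid2-2, and the 3 sid2-2 libraries at 15 min had 107, 238 and 47.6 CPM. The difference was 3.51 ± 0.387, or 3.28 without replicate 2, 3.57 without replicate 3, 5.07 with library batch as a term and 5.52 in the 15 min libraries alone. AT2G18190 and AT2G18193, neighbouring genes, the first annotated as a P-loop nucleoside triphosphate hydrolase, with 1540 bases between them, differed by 3.97 ± 0.364 and 2.67 ± 0.323. AT5G13210, a protein with a von Willebrand domain, was at 2.73 to 6.86 CPM in Col-0 and 16.4 to 161 CPM in sid2-2, a difference of 3.00 ± 0.331. AT1G17960, a threonyl-tRNA synthetase, differed by 2.32 ± 0.199. These were, with library batch as a term, 5.36 for AT2G18190, 3.99 for AT2G18193, 4.07 for AT5G13210 and 2.93 for AT1G17960. Without replicate 2 they were 3.75, 2.51, 2.80 and 2.21 in the same order, and without replicate 3 they were 4.07, 2.71, 3.06 and 2.38. AT1G30170, a DUF295 protein, had 37 counts in Col-0 and 332 in sid2-2, a ratio of 8.76 (exact 95% interval 6.22 to 12.7), and its highest library was also 15 min replicate 2. The value for AT2G04050 is uncertain where reads map to close copies: its neighbours AT2G04040 (DTX1) and AT2G04070 had differences of 0.81 and 2.75.

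Among the other high genes, AT1G61740, a TauE/SafE-type sulfite exporter family protein, was at 103 to 196 CPM (median 145) in Col-0 and 341 to 469 CPM (median 377) in sid2-2, a difference of 1.42 ± 0.0703. MOT1, a molybdate transporter, was at 7.94 to 13.4 CPM in Col-0 and 27.6 to 36.4 CPM in sid2-2, a difference of 1.63 ± 0.0547 (adjusted p = 4.7e-19). NAC044, a transcription factor of the DNA damage response, was at 3.01 to 5.15 CPM in Col-0 and 7.12 to 23.7 CPM in sid2-2, a difference of 1.73 ± 0.154. In a DNA damage list drawn up for this reason after the values were seen, 3 of 13 genes were higher (23.1%), 1 lower (7.69%) and 9 not called, shares under the 27.8% and 27% of all genes tested. GMI1, a repair protein, differed by 1.08 ± 0.118 and CYCB1;1, a mitotic cyclin, by -0.22 ± 0.0662, which was not called with library batch as a term (adjusted p = 0.085). AT5G08250, a cytochrome P450, differed by 1.74 ± 0.154.

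**Figure D4:**
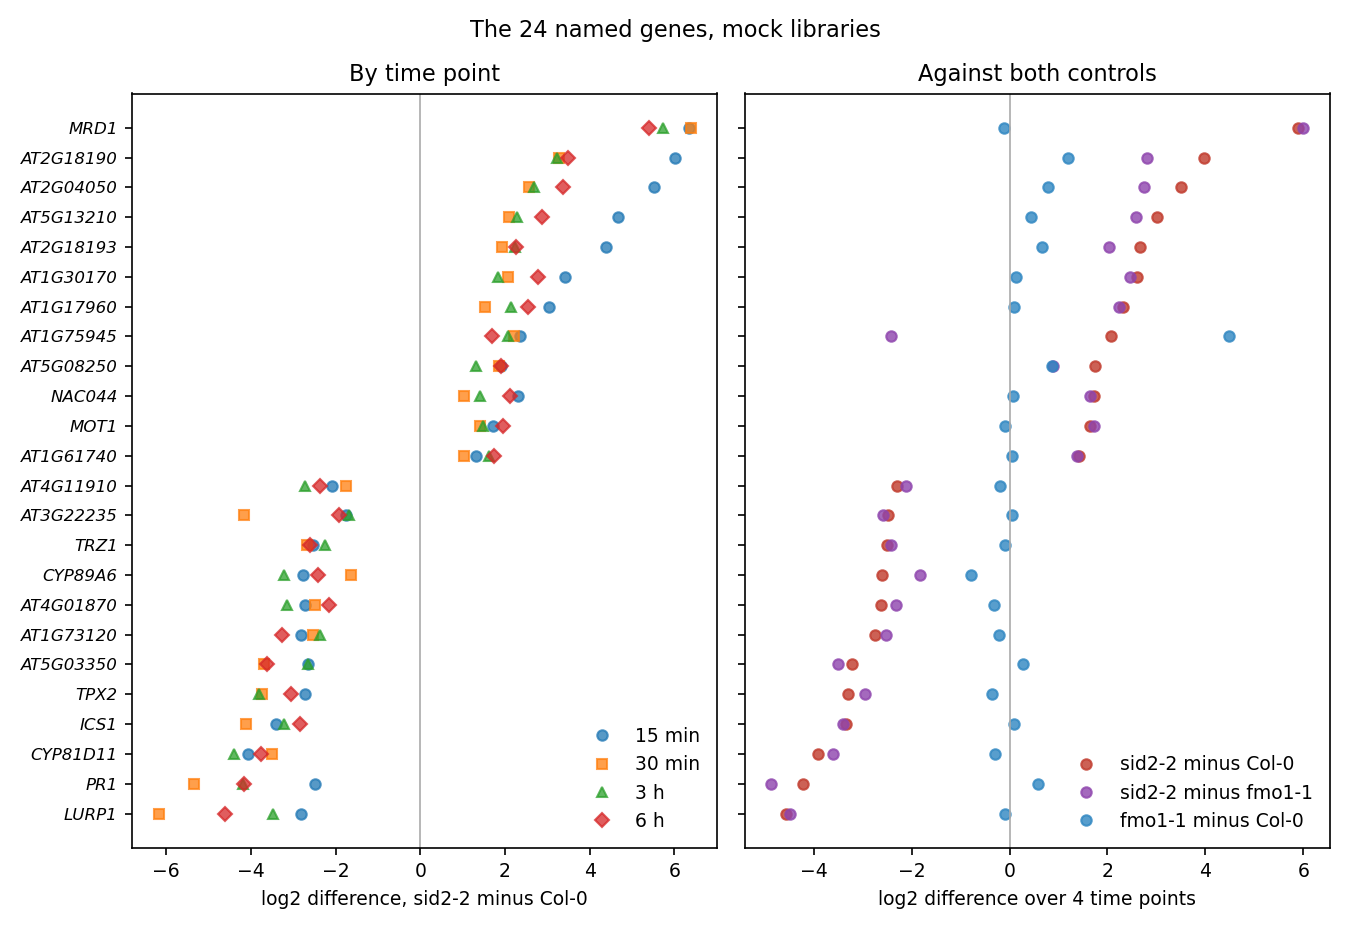
Log2 differences of the 12 lowest and 12 highest genes: sid2-2 minus Col-0 at each time point (left), and over the 4 time points against Col-0 and fmo1-1, with fmo1-1 minus Col-0 beside them (right). By the rule that chose them, all 24 had 1 sign at the 4 time points. AT1G75945 was lower in sid2-2 than in fmo1-1 but higher than in Col-0.

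Markers of shoot and root tissue moved with genotype. All 10 shoot markers, which encode Rubisco small subunits, chlorophyll-binding proteins and a photosystem protein, were called higher (27.8% of all genes tested), 9 of them at all 4 time points (7.11% of all genes), with a median of 0.529. RBCS1A, a Rubisco small subunit, differed by 0.62 ± 0.0337 and LHCB1.2, a light-harvesting protein, by 0.83 ± 0.0812. Their summed level was 26160 to 42400 CPM in Col-0 and 40490 to 57610 CPM in sid2-2, and within each time point the genotypes did not overlap. Of 12 root markers 9 were called lower (75%, against 27% of all genes), all of them at all 4 time points (4.18% of all genes), and 1 higher, with a median of -0.554. CASP1, of the Casparian strip, was at 31.6 to 39.1 CPM in Col-0 and 20.3 to 25.2 CPM in sid2-2, a difference of -0.63 ± 0.0358, and the tonoplast channel TIP2;3 differed by -0.97 ± 0.0944. PYK10, a root glucosidase that alone gave 3455 to 4531 CPM of the sum in Col-0, had a difference of -0.04 ± 0.0309 (adjusted p = 0.252). The summed root level was 3806 to 4992 CPM in Col-0 and 3588 to 4769 CPM in sid2-2. Without PYK10 it was 351 to 461 CPM in Col-0 and 239 to 305 CPM in sid2-2, and the genotypes did not overlap. IRT1, the root iron transporter, ranged from 0 to 3.35 CPM in Col-0 and 0.0405 to 15.0 CPM in sid2-2, and its difference of 1.92 ± 0.42 was not called with library batch as a term (adjusted p = 0.21). In whole seedlings, more cells of a type and more RNA per cell cannot be told apart, and the part of these markers in the other differences was not tested.

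**Figure D5:**
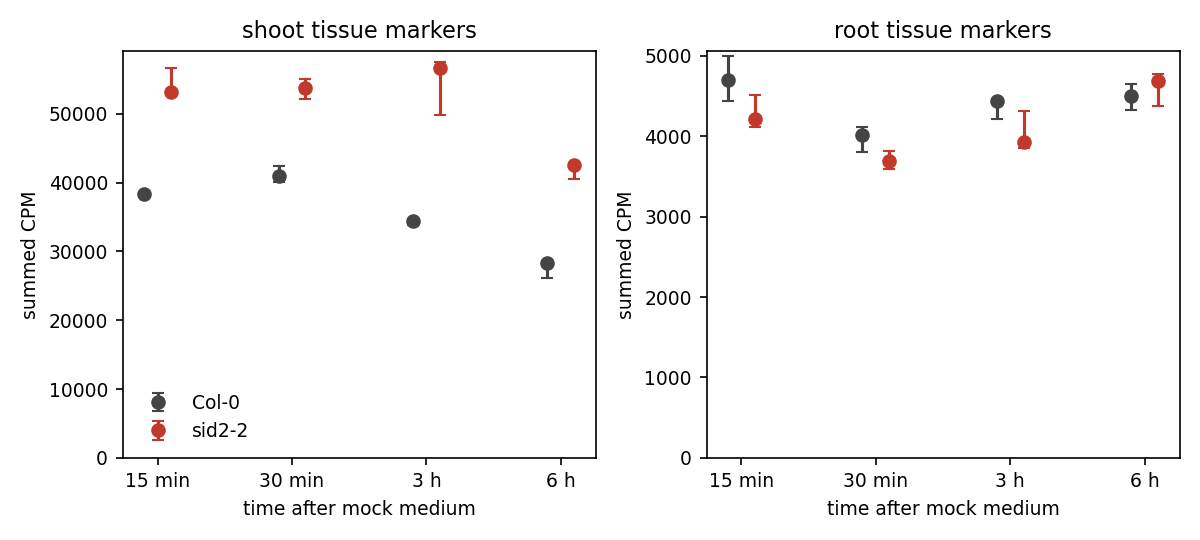
Summed CPM of the 10 shoot markers (left) and 12 root markers (right) in Col-0 and sid2-2 mock libraries at each time point, as the median of 3 libraries with their lowest and highest. The shoot sum was higher in sid2-2 at every time point, and the root sums, most of which was PYK10, overlapped over the 4 time points.

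Anthocyanin genes, in a list drawn up after values had been seen, were higher at the late steps of the pathway. Of 14 tested 9 were called higher (64.3%, against 27.8% of all genes tested) and 3 lower (21.4%, under the 27% of all genes), with a median of 0.677. With library batch in the model 8 were higher (57.1%, against 20.9% of all genes) and 3 lower (21.4%, against 16.6%). DFR, the first committed step, was at 4.26 to 6.38 CPM in Col-0 and 6.65 to 23.4 CPM in sid2-2, a difference of 1.21 ± 0.119. LDOX differed by 1.11 ± 0.102 and the glycosyltransferase UF3GT by 1.34 ± 0.132. The regulator PAP1 differed by 0.82 ± 0.172. F3H, an earlier step, differed by -0.31 ± 0.0413.

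Rapid stress, heat and clock genes were read as signs of handling and time of day. Of 11 rapid stress genes 8 were called higher (72.7%, against 27.8% of all genes tested) and none lower, with a median of 0.431, and 8 were also higher without sid2-2 15 min replicate 2. Of the 11, 7 were higher with library batch as a term (63.6%, against 20.9% of all genes) and 1 lower (9.09%, against 16.6%). In the 15 min libraries alone, a fit of 6, 1 was higher and 1 lower, against 2617 and 2258 of all genes. The fit of all 24 libraries called 9 at 15 min, in either direction, with a median of 0.767. CML38, a calmodulin-like protein, differed by 1.11 ± 0.191, and TCH4, a touch-induced wall enzyme, by 1.16 ± 0.189. ZAT12, a stress zinc finger, ranged from 5.54 to 37.9 CPM in sid2-2 against 4.73 to 10.2 CPM in Col-0, with the highest value in 15 min replicate 2, and its difference was 0.72 ± 0.189, or 0.56 without that library. Of 8 heat genes 6 were called higher (75%, against 27.8% of all genes tested) and 1 lower (12.5%, against 27%). None was called at 6 h, and none at all 4 time points. Without sid2-2 15 min replicate 2, 4 were higher and 1 lower, against 5789 and 5594 of all genes. With library batch as a term 3 were higher (37.5%, against 20.9% of all genes) and 0 lower (16.6% of all genes). HSP17.6II differed by 0.93 ± 0.107 and HSFA2 had a difference of -0.47 ± 0.15 that was not called with that term (adjusted p = 0.13). Of 12 clock genes 5 were higher (41.7%) and 4 lower (33.3%), against 27.8% and 27% of all genes tested. With that term 3 were higher (25%) and 2 lower (16.7%), against 20.9% and 16.6%. The 15 min libraries alone gave 0 higher and 1 lower, against 2617 and 2258 of all genes. Among them were PRR9 at 0.60 ± 0.0835, LUX at 0.25 ± 0.0291 and ELF4 at -0.35 ± 0.0664. The part of handling in the differences between genotypes was not tested.

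The difference between genotypes changed with time in 1255 genes (6.06%) by edgeR's test of genotype by time, and 226 (1.09%) were called higher at one time point and lower at another. The smallest p was that of AT4G12290, a copper amine oxidase family protein. It was at 72.6 to 85.3 CPM in Col-0 and 14.2 to 15.5 CPM in sid2-2 at 15 min, and at 118 to 120.5 CPM and 79.7 to 86.0 CPM at 6 h. Its log2 difference was -2.39, -1.64, -1.52 and -0.53 in the order of time (adjusted p = 6.6e-13). AT2G30600, a BTB/POZ protein, had 0.04, -0.75, 0.44 and 0.24, and AT3G19680, a putative formin-like protein, had -0.18, -0.89, 0.61 and 0.47. BT4, a BTB protein with a TAZ domain, had -0.65, -0.88, -0.05 and 0.09. Time point moved with batch, and their parts in these changes cannot be told apart. The count was 2261 without sid2-2 15 min replicate 3 and 907 without Col-0 30 min replicate 1.

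The 12 mock libraries of fmo1-1, a mutant unable to make NHP, gave a second control with intact ICS1, and shared the sid2-2 libraries with the comparison above. The study's sample setup lists no fmo1-1 library, so their batches are not known, and the fit of 36 libraries had no batch term. Batch and plate were therefore not controlled for in the comparisons with fmo1-1. Against fmo1-1, 10817 of 20859 genes tested (51.9%) were called in sid2-2, 5579 higher and 5238 lower. Between fmo1-1 and Col-0, 279 (1.34%) were called, 14 of them (0.0671%) past 1 or -1. ICS1 was at 8.61 to 12.3 CPM in fmo1-1 on the scale of those 36 libraries, and sid2-2 was lower by -3.41 on the log2 scale, against -3.33 from Col-0. PR1 differed from fmo1-1 by -4.86 and LURP1 by -4.48. MRD1 differed by 6.00 and CYP81D11 by -3.61. APR3 differed by -1.62 from fmo1-1 and RBCS1A by 0.66. AT1G75945, an uncharacterized protein, was, on the scale of the 36 libraries, at 5.64 to 7.86 CPM in fmo1-1, 0.488 to 1.67 CPM in sid2-2 and 0.0416 to 0.431 CPM in Col-0. It was higher in sid2-2 than in Col-0 by 2.06 but differed from fmo1-1 by -2.41. FMO1 itself differed by -3.10 between fmo1-1 and Col-0, the gene its label names.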

How the data were processed

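RNA was measured in 24 mock libraries of Col-0 and sid2-2 whole seedlings, with 12 of fmo1-1 as a second control. The counts, whole numbers of reads per gene, were made and deposited by the authors without normalization. The study's methods name FastQC for quality control, with trimming and mapping to TAIR10 in CLC Genomics Workbench. How reads were counted, on which annotation and with which strand setting is not stated in what was used here. Of 27655 genes, 27445 matched the TAIR10.1 symbol table, and 0 count columns were left unused.

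Counts were fitted with edgeR 4.0.16 and limma 3.58.1 in R 4.3.3, with TMM scaling (factors 0.927 to 1.10), robust dispersions, a prior count of 2 and genes kept by filterByExpr (minimum count 10, minimum total 15), and figures were made with Python 3.11.15 and matplotlib 3.10.9. The model of time point plus genotype had 19 residual degrees of freedom and the model of 8 groups, used for each time point and for genotype by time, had 16. The biological coefficient of variation was 0.0778. fmo1-1 was compared in a fit of 36 libraries. SEs are the log2 difference over the root of the F value. Replicates were separate wells, and p-values of the model of 8 groups measure the spread between wells. Those of the model of time point plus genotype also take in changes of the genotype difference with time. The counts of paired libraries within groups differed by a chi-square of 2.58 to 14.5 per degree of freedom (median 4.32, 24 pairs), more than sampling noise. The fits were tested on simulated data. The precision of rare transcripts is limited by counting, and intervals there cover counting error only.

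Alternatives were DESeq2 1.42.0 and its size factors, no filter on low counts, a replicate block, library batch as a term, fewer or more libraries in the fit, and each library left out. Followed singly through these fits were 126 genes, most but not all of which are named in the report. The members and gene lists were chosen with earlier results of these data known, and the DNA damage, sulfur, anthocyanin and detoxification lists after values had been seen, so that their counts are descriptions. Named by rule were ICS1 with 10 annotated genes on each side, members of the lists, the 12 largest differences in each direction among genes called at all 4 time points with no overlap of libraries and a mean of at least 1 CPM in the higher genotype, and the 4 smallest p of genotype by time. HEI10, TPX1 and the close copies of AT2G04050 were named after their values were seen, because they overlap or resemble named genes. Upstream windows were read from TAIR10.1, and no coordinate of another build was used with them.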

Additional observations from a re-analysis of the deposited data

Results flagged for a closer look

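Of the 126 genes followed singly through the other fits, 25 had log2 differences between sid2-2 and Col-0 that differed among the 4 time points with an adjusted p under 0.05 (genotype by time, edgeR). They are given with their log2 differences in the order of time. Outliers were not tested for, since groups held 3 libraries or 12.

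In 17 of them the difference had 1 sign at the 4 time points. AT4G12290 had -2.39, -1.64, -1.52 and -0.53 (adjusted p = 6.6e-13). AT1G61740 had 1.31, 1.04, 1.61 and 1.73 (adjusted p = 6.8e-05). ChlAKR had -2.54, -1.02, -2.60 and -1.05 (adjusted p = 0.000373). JAZ9 had 0.36, 0.19, 0.95 and 0.42 (adjusted p = 0.00103). MOT1 had 1.71, 1.40, 1.49 and 1.96 (adjusted p = 0.00415). PRR9 had 0.18, 0.71, 0.73 and 1.06 (adjusted p = 0.00851). SHM7 had -1.28, -0.84, -1.06 and -0.997 (adjusted p = 0.00851). UGT74F2 had -0.95, -0.67, -0.83 and -0.49 (adjusted p = 0.0124). ICS1 had -3.41, -4.11, -3.22 and -2.83 (adjusted p = 0.0163). SDI2 had -1.44, -0.81, -1.17 and -1.25 (adjusted p = 0.0252). DIR1 had 0.68, 0.85, 1.49 and 1.42 (adjusted p = 0.0286). OPR2 had -1.46, -0.86, -1.26 and -1.20 (adjusted p = 0.0286). TCH4 had 1.49, 0.14, 1.41 and 1.74 (adjusted p = 0.0294). CM1 had 0.30, 0.34, 0.22 and 0.03 (adjusted p = 0.0342). NAC044 had 2.30, 1.04, 1.41 and 2.12 (adjusted p = 0.0395). LSU2 had -0.73, -0.86, -0.98 and -1.57 (adjusted p = 0.0408). IRT1 had 0.65, 1.93, 4.35 and 0.40 (adjusted p = 0.0452).

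In the other 8 it had both signs. AT2G30600 had 0.04, -0.75, 0.44 and 0.24 (adjusted p = 2.87e-10). AT3G19680 had -0.18, -0.89, 0.61 and 0.47 (adjusted p = 6.62e-09). BT4 had -0.65, -0.88, -0.05 and 0.09 (adjusted p = 1.43e-08). WRKY53 had 0.05, -0.05, -0.87 and -1.12 (adjusted p = 1.13e-05). SARD4 had -0.24, 0.02, -0.53 and -0.87 (adjusted p = 5.47e-05). GSTU19 had 0.45, 0.61, 0.20 and -0.03 (adjusted p = 5.91e-05). PHYLLO had 0.19, -0.03, 0.40 and 0.27 (adjusted p = 0.0213). HSFA2 had -0.52, 0.18, -1.32 and -0.43 (adjusted p = 0.025).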

How the results depend on the processing

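Counts over all genes moved by more than 1.5 times in the following cases. The 15 min libraries alone, a fit of 6, gave 4875 genes called (2617 higher and 2258 lower) against 11353 over the 4 time points. With library batch as a term the genes called lower fell to 3440 of 7766, while genes higher past a log2 difference of 1 numbered 252. DESeq2, whose log2 differences carry no prior count, gave 234 higher and 271 lower past 1 and -1, against 152 and 155. The count of genotype by time ranged from 907 to 2261 over 24 fits without 1 library. The count at all 4 time points ranged from 1878 to 2379 in those fits and was 2321 with DESeq2, 2290 without the filter and 2142 with each time point fitted alone, of which 1961 were among the reported 2341. Replicate numbers did not pair the libraries: only 1 of 12 same-numbered pairs had a correlation of deviations above 0.1 (range -0.159 to 0.134), and 2 correlated best with their own number. With the replicate block 2163 genes were called at all 4, and of the genes followed singly SULTR2;1 alone was no longer called (adjusted p = 0.085). Of the counts of called genes in single lists under alternatives other than leaving out 1 library, 211 stayed within 1.5 times and 41 did not, most of them with library batch as a term (WRKY factors lower 2 against 5, jasmonate genes lower 4 against 8, heat genes higher 3 against 6) or in the 15 min libraries alone. NHP and EDS1 genes lower numbered 9 against 5 without sid2-2 15 min replicate 2. DESeq2 size factors moved the median log2 difference by 0.00398. Of the genes followed singly, 112 were called over the 4 time points. With library batch as a term 17 of these were not called, all 112 keeping their sign. In the 15 min libraries alone 30 were not called and 5 (PR1, LURP1, DLO1, GRX480 and PAP1) were not tested. In the 15 min libraries alone WRKY53 had 0.03895 and SULTR2;1 -0.0172, the only reversals of a called gene. The 10 libraries that share a batch with the other genotype limit what can be said apart from batch, and transcripts under about 1 CPM rest on few counts.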
